A study of Homo sapiens with 6 samples.

Results

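The genes described here make and use microRNAs in Jurkat, a human cell line established from a T cell leukaemia. They are the 2 core subunits of the nuclear Microprocessor (DROSHA and DGCR8), the export receptor XPO5, the ribonuclease DICER1, the Argonautes AGO1 to AGO4, the scaffold TNRC6A, and MIR17HG, the noncoding host transcript of the miR-17 to miR-92 cluster. They were taken by gene symbol in GENCODE 29, and these 10 genes were found once each among 58735 gene identifiers. RNA-seq of total RNA was compared between cells infected with a lentiviral short hairpin RNA against SATB1, a DNA-binding chromatin organiser of T cells (shSATB1, 3 libraries), and cells infected with a lentiviral control hairpin (shCtrl, 3 libraries). Both groups are the same cell line and both carry a lentiviral vector that expresses a hairpin. The promoter of the vector, the time after infection and whether infected cells were selected: none is given in the sources used here. Whether the replicates came from different cultures is not stated either, so a p-value measures the spread among libraries, and that spread may be technical. In bulk RNA, fewer cells expressing a gene and less RNA per cell cannot be told apart.

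A primary microRNA transcript such as MIR17HG is cropped in the nucleus by DROSHA, held by its RNA-binding partner DGCR8, into a short hairpin that XPO5 carries to the cytoplasm. DICER1 cuts the hairpin to a duplex, an Argonaute keeps a single strand of it, and TNRC6 proteins bind the Argonaute and recruit the enzymes that shorten and decap the targeted mRNA. A short hairpin RNA delivered by a vector is usually transcribed as an already short hairpin, so it uses the export, dicing and loading steps of the same pathway in both groups. The miR-17 to miR-92 cluster is best known in lymphocytes, where it favours survival and proliferation and is amplified in some lymphomas.

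The cluster is shown because MIR17HG is the only noncoding gene of the set and its arms define the target sites described further on. MIR17HG lies at chr13:91347820-91354579 on the plus strand (hg38), with 3 annotated transcripts, and the 6 hairpins fall between 91350605 and 91351391, a span of 787 bases. The arms most often described as active follow 5′ to 3′ (RefSeq, GRCh38.p14), with the seed, bases 2 to 8, in capitals. They carry 4 different seeds, with miR-17 and miR-20a sharing one and miR-19a and miR-19b another.
hsa-miR-17-5p: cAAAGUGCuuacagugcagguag
hsa-miR-20a-5p: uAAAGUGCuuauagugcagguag
hsa-miR-18a-5p: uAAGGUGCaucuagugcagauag
hsa-miR-19a-3p: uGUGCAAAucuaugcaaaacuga
hsa-miR-19b-3p: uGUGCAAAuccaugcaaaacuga
hsa-miR-92a-3p: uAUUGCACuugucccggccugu

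Other loci encode arms with the same seeds. These include 3 that lie within MCM7, a gene of the replicative helicase on chromosome 7, and 2 of these share the seed of miR-17 while the other, miR-25, shares that of miR-92a.
hsa-miR-106b-5p: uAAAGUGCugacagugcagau
hsa-miR-93-5p: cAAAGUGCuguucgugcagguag
hsa-miR-25-3p: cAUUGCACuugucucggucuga

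Libraries held 26626539 to 28913623 reads in genes. SATB1 stood at 102.0 ± 1.94 CPM in shSATB1 cells and at 265.6 ± 11.6 CPM in shCtrl cells (read counts scaled by library size with TMM; mean ± SD, n = 3 each, as for all such pairs), 38.4% of the control level. All 9 T cell markers were detected, with summed levels of 3158 to 3441 CPM in shSATB1 libraries and 3496 to 3891 CPM in shCtrl libraries. Of these markers 5 fell (CD3D, CD247, ZAP70, TRBC1 and CD5) and TRAC rose (log2 fold change 0.47, adjusted p = 0.000580, edgeR). Among all genes tested, 16.6% fell and 14.3% rose. Of 12 markers of other lineages, EPCAM had no reads and 6 more were too low to test. Their summed level was 165 to 172 CPM in shSATB1 libraries and 247 to 257 CPM in shCtrl libraries, mostly PECAM1, an adhesion molecule, at 94.3 and 174.8 CPM. PECAM1 and CD79A fell, while COL1A1 rose to 20.8 CPM in shSATB1 cells, against 15.5 CPM in shCtrl cells, and the median log2 fold change of the 5 tested was 0.12. Reads outside annotated exons made up 10.9% to 11.7% of reads in shSATB1 libraries, above the 7.77% to 10.2% in every shCtrl library. Reads set aside as ambiguous between genes made up 8.99% to 9.32% in shSATB1 libraries, below the 9.54% to 10.1% in every shCtrl library. The part of these shifts in the results was not tested, except that the share of reads outside annotated exons was also entered in the fit as a covariate. In that fit the calls of CD3D (0.045, adjusted p = 0.767), CD247 (-0.15, 0.220), ZAP70 (-0.17, 0.111) and TRBC1 (-0.09, 0.447) ended. So did those of CD79A (-0.004, 0.989) and COL1A1 (0.32, 0.176). The calls of CD3D, CD247, ZAP70 and CD79A also ended without shSATB1 library 1 or 3.

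All 10 genes passed the filter on low counts, and 7 of them (70%) differed between the groups at an adjusted p under 0.05 (edgeR quasi-likelihood test, Benjamini-Hochberg over 17520 genes), where 30.9% of all genes tested did. DICER1, TNRC6A, AGO4 and AGO3 rose, and 14.3% of all genes rose. XPO5, MIR17HG and DROSHA fell, and 16.6% of all genes fell. The groups did not overlap for 8 of the 10 genes, against 45.1% of all genes. The median log2 fold change was 0.18 over the 10 genes and 0.01 over all genes tested.

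**Figure D1:**
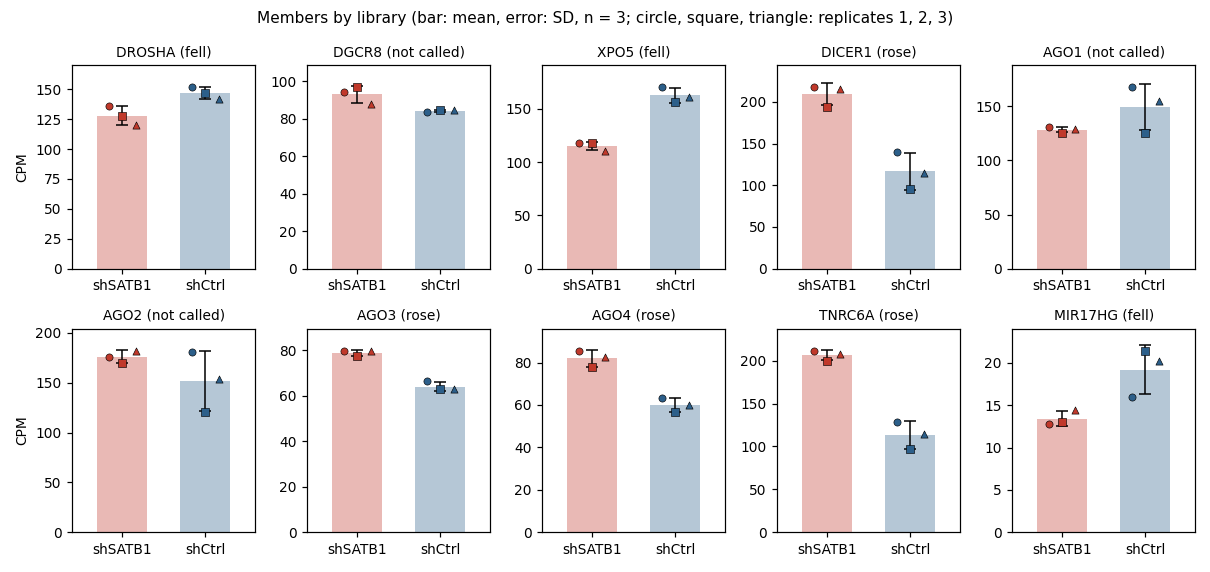
Levels of the 10 genes in each library, in CPM; bars are group means, error bars SD, and circles, squares and triangles replicates 1, 2 and 3. TNRC6A and DICER1 stand clearly higher in all 3 shSATB1 libraries, XPO5 and MIR17HG lower, and AGO1 and AGO2 overlap between the groups.

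In the nucleus, the levels of the 2 Microprocessor genes lay in opposite directions. DROSHA, the ribonuclease III that crops the primary transcript (chr5:31400497-31532196, minus strand), had 136, 127 and 120.0 CPM in shSATB1 libraries 1 to 3, against 152, 147 and 142 CPM in shCtrl libraries 1 to 3. Every shSATB1 library was below every shCtrl library, by a narrow margin. DROSHA fell by 0.20 on the log2 scale (SE 0.065, adjusted p = 0.0298, edgeR), a call that ended when shCtrl library 3 (adjusted p = 0.0615), shSATB1 library 2 (0.0935) or shSATB1 library 3 (0.180) was left out. In the fit with the share of reads outside annotated exons as covariate it was -0.23 and did not pass (adjusted p = 0.0663). DGCR8, the RNA-binding partner of DROSHA (chr22:20080232-20111877, plus strand), had 94.4, 96.9 and 88.0 CPM in shSATB1 libraries, against 83.6, 84.6 and 84.7 CPM in shCtrl libraries. The shSATB1 libraries were again apart, here on the upper side, and the log2 fold change of 0.14 (SE 0.061) did not pass the test (adjusted p = 0.0933, edgeR). DGCR8 shares 9.58% of its exon bases with other annotated genes, among them 2 microRNA hairpins in its own exons that had no reads in any library. A read over these hairpins overlaps 2 genes and may have been set aside as ambiguous.

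Per kilobase of exon, DROSHA made up 57.6%, 55.3% and 56.2% of the summed DROSHA and DGCR8 reads in shSATB1 libraries and 63.1%, 62.1% and 61.1% in shCtrl libraries. The ratio of the 2 subunits thus lay apart between the groups in every library, with a difference of -5.75 percentage points. This ratio was chosen after the data were seen, and its two-sided exact permutation test gave p = 0.1, the smallest that 3 against 3 libraries allow.

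XPO5, the RanGTP-dependent receptor that exports hairpin precursors (chr6:43522330-43576075, minus strand), fell. It had 117, 118 and 110.5 CPM in shSATB1 libraries, against 170.4, 156 and 161 CPM in shCtrl libraries. The groups were far apart, and the log2 fold change was -0.50 (SE 0.062, adjusted p = 7.11e-05, edgeR). The call held in all 17 alternative settings, with log2 fold changes from -0.59 to -0.46. On the opposite strand, POLR1C, a subunit gene of RNA polymerases I and III, covers 4.08% of the exon bases of XPO5 and itself fell by 0.37 on the log2 scale (adjusted p = 0.00410, edgeR); the strand setting of the counting is not given in the sources used here.

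DICER1, the cytoplasmic ribonuclease that removes the loop of the hairpin (chr14:95086228-95158010, minus strand), rose 1.79-fold. Its level was 218, 194 and 215 CPM in shSATB1 libraries, against 139.6, 95.1 and 115 CPM in shCtrl libraries. The lowest shSATB1 library was well above the highest shCtrl library, while the shCtrl libraries were themselves widely spread. The log2 fold change was 0.84 (SE 0.106, adjusted p = 7.86e-05, edgeR). With the share of reads outside annotated exons as covariate it was 0.34 (adjusted p = 0.00230), smaller but still past the threshold.

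Among the Argonautes, AGO4 and AGO3 rose, and AGO1 and AGO2 did not pass the test. AGO4 had 85.7, 77.8 and 82.4 CPM in shSATB1 libraries, against 63.4, 56.8 and 60.1 CPM in shCtrl libraries. The groups did not overlap, and the 1.36-fold rise (log2 fold change 0.45, SE 0.067, adjusted p = 0.000273, edgeR) passed in all 17 alternative settings, and was 0.28 in the covariate fit (adjusted p = 0.0474). AGO3 had 79.9, 77.3 and 79.5 CPM in shSATB1 libraries, against 66.4, 62.8 and 62.8 CPM in shCtrl libraries. The replicates lay close together in both groups, and the log2 fold change was 0.30 (SE 0.060, adjusted p = 0.00209, edgeR). AGO3 has the longest exon sequence of the 10 genes, 21157 bases, and with an offset for gene length its log2 fold change was 0.06 (adjusted p = 0.546). It was 0.23 in the covariate fit (adjusted p = 0.110), and neither passed.

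AGO1 had 131, 126 and 129 CPM in shSATB1 libraries, against 168, 126 and 155 CPM in shCtrl libraries. The shSATB1 libraries were tightly grouped and met the lowest shCtrl library, number 2. The log2 fold change was -0.22 (SE 0.087, adjusted p = 0.0754, edgeR), and AGO1 passed the test with the length offset (-0.38, adjusted p = 0.000113), in the covariate fit (-0.58, adjusted p = 3.71e-07) and without shCtrl library 2 (-0.32, adjusted p = 4.03e-05). AGO2, the only human Argonaute with efficient slicing activity and the one on chromosome 8, had 176, 169.8 and 182 CPM in shSATB1 libraries, against 181, 120.5 and 153 CPM in shCtrl libraries. A single shCtrl library, number 1, reached the shSATB1 values. The log2 fold change was 0.22 (SE 0.108, adjusted p = 0.148, edgeR). It was 0.36 without shCtrl library 1 (adjusted p = 0.000343) and -0.29 in the covariate fit (adjusted p = 0.0125), so the direction of AGO2 did not hold across settings.

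AGO4, AGO1 and AGO3 stand in tandem on the plus strand of chromosome 1 and together take up chr1:35808172-36072500, with 11918 bases between AGO4 and AGO1 and 190 bases between AGO1 and AGO3. The middle gene is the one whose log2 fold change was negative. The nearest tested genes on either side, CLSPN and ADPRHL2, had log2 fold changes of -0.09 (adjusted p = 0.356) and -0.15 (adjusted p = 0.169, edgeR), and neither passed.

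The make-up of the Argonaute transcripts was followed as shares of the family's reads per kilobase, which do not depend on library scaling. AGO1 took 26.1%, 26.5% and 25.9% of the family in shSATB1 libraries and 34.2%, 33% and 34.8% in shCtrl libraries. AGO4 took 32.7%, 31.4% and 31.6% in shSATB1 libraries and 24.6%, 28.5% and 25.8% in shCtrl libraries. The share of AGO1 was therefore lower, with a difference of -7.79 percentage points, and that of AGO4 higher, with 5.56 points, in each shSATB1 library than in any shCtrl library. AGO2 averaged 31.4% ± 0.628 in shSATB1 cells and 30.1% ± 2.30 in shCtrl cells, and AGO3 10.5% ± 0.141 and 9.65% ± 1.03, both with overlap. Both differences of AGO1 and AGO4 gave p = 0.1 in two-sided exact permutation tests, the smallest possible (0.175 adjusted over 7 shares).

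TNRC6A, a GW182 scaffold that bridges the Argonaute to the deadenylase complexes (chr16:24610209-24827632, plus strand), rose. It stood at 212, 200.2 and 207 CPM in shSATB1 libraries, against 129, 97.0 and 114 CPM in shCtrl libraries. No library of the groups came close to the other group. The rise was 1.82-fold (log2 fold change 0.86, SE 0.086, adjusted p = 1.17e-05, edgeR) and passed in all 17 alternative settings, with 0.51 under the covariate (adjusted p = 7.24e-06) as the smallest value.

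Its paralogues behaved differently. TNRC6B averaged 152 ± 9.40 CPM in shSATB1 cells and 116 ± 28.0 CPM in shCtrl cells and passed the test (log2 fold change 0.39, adjusted p = 0.0320, edgeR), but its libraries overlapped. The call ended under 7 alternative settings, among them those without shCtrl library 3 or any 1 of the shSATB1 libraries, the log2 fold change was 0.22 without shCtrl library 2, and the sign turned in the covariate fit (-0.24, adjusted p = 0.0479). TNRC6C, named after its values were seen, averaged 92.7 ± 1.02 CPM in shSATB1 cells and 97.4 ± 16.5 CPM in shCtrl cells (log2 fold change -0.07, adjusted p = 0.606). TNRC6C passed as lower in 4 alternative settings, namely the covariate fit (-0.47, adjusted p = 0.000105), the length offset (-0.20, 0.0388), the block with the offset (-0.19, 0.0321) and without shCtrl library 2 (-0.19, 0.0198). Within the family, TNRC6A took 50.7%, 50.1% and 49.4% of the reads per kilobase in shSATB1 libraries and 36.5%, 39.3% and 37.5% in shCtrl libraries. TNRC6C took 26.1% ± 0.745 in shSATB1 cells and 37.6% ± 0.279 in shCtrl cells. The shares of TNRC6A and TNRC6C did not overlap between the groups, with differences of 12.32 and -11.45 percentage points (exact p = 0.1 each, 0.175 adjusted), while TNRC6B kept 23.8% ± 0.854 and 24.7% ± 1.71 with overlap.

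**Figure D2:**
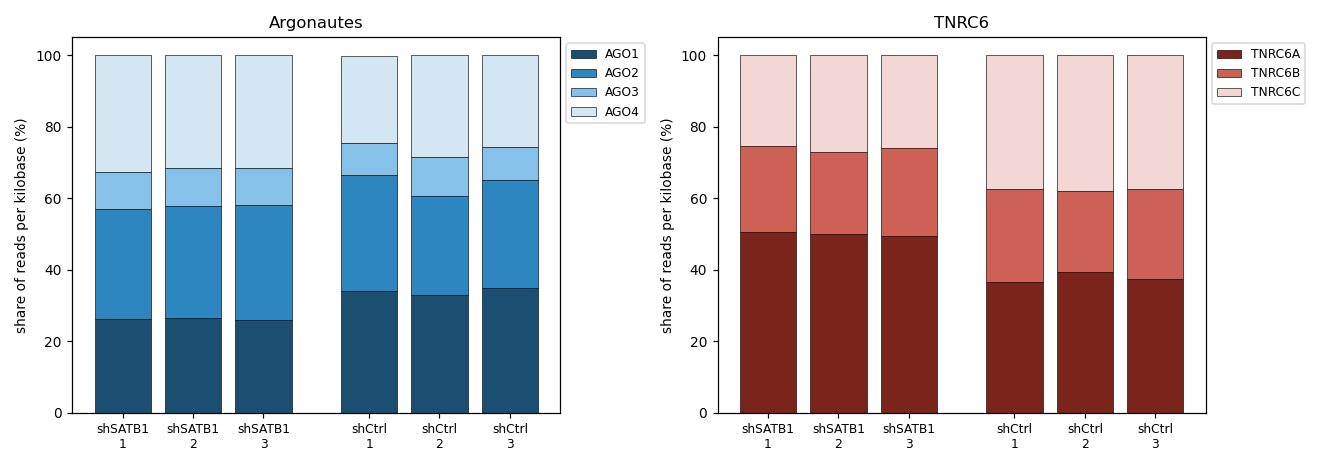
Share of each gene in the summed reads per kilobase of exon of its family, in percent, per library, for the 4 Argonautes and the 3 TNRC6 genes. AGO1 takes 26.2% in shSATB1 and 34.0% in shCtrl libraries on average, and TNRC6A 50.1% and 37.8%.

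MIR17HG, the host transcript shown above, fell 1.43-fold. It had 12.7, 13.0 and 14.4 CPM in shSATB1 libraries, against 15.97, 21.5 and 20.2 CPM in shCtrl libraries, from 350 to 590 reads per library. The shSATB1 libraries were all below the lowest shCtrl library, number 1. The log2 fold change was -0.52 (SE 0.111, adjusted p = 0.00307, edgeR). It was -0.20 with the covariate, where the call ended (adjusted p = 0.483), and it ranged from -0.64 to -0.43 when each library was left out. The 6 hairpin genes of the cluster cover 13.5% of the exon bases of MIR17HG on the same strand and had no reads in any library. A read there overlaps 2 genes and may have been set aside as ambiguous, so this absence says nothing about the hairpins. Such reads may also be missing from the count of MIR17HG, and the share of ambiguous reads was lower in every shSATB1 library. The counts are of the host RNA and hold no measurement of the mature microRNAs. The nearest tested genes, PTMAP5, 9656748 bases before MIR17HG, and GPC5, 44028 bases after it, did not pass (adjusted p = 0.0568 and 0.800, edgeR).

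Over the 6 libraries, the log2 CPM of MIR17HG was most like that of UTP14A (Pearson r = 0.994), a gene of ribosomal RNA processing, among 9770 genes of at least 10 CPM. CMC1, a mitochondrial assembly factor (0.992), the Mediator subunit MED27, the histone methyltransferase KMT5A and the immunophilin FKBP1A (0.991 each) came next. These are descriptions over 6 libraries that share the 2 groups and their depth. All 5 were picked for likeness to MIR17HG, which was itself lower in every shSATB1 library. Their own lower levels there follow from that choice and are no separate result. KMT5A did not pass the test (log2 fold change -0.15, adjusted p = 0.0960, edgeR).

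Compared between genes by RPKM, that is reads scaled to exon length and library size, the order of levels differed between the groups. In shSATB1 cells DICER1 averaged 17.0 ± 1.07, DROSHA 16.4 ± 1.03 and TNRC6A 16 ± 0.459 RPKM, and these neighbours overlapped. XPO5 and DGCR8, at 13.5 and 12.7 RPKM, overlapped below them, followed by AGO4, AGO2 and AGO1 at 11.3, 11.1 and 9.26 RPKM. In shCtrl cells XPO5 and DROSHA led with 19.1 ± 0.850 and 18.9 ± 0.646 RPKM, apart from DGCR8 at 11.5 RPKM, and DICER1 and TNRC6A stood below the nuclear genes at 9.49 ± 1.81 and 8.78 ± 1.23 RPKM. From DGCR8 down to AGO4 no neighbours in the shCtrl order were apart. MIR17HG and AGO3 were lowest in both groups, at 3.83 and 3.73 RPKM in shSATB1 cells, with overlap, and at 5.5 and 3.03 RPKM in shCtrl cells, apart. The order depends on the length used. Over all 6 libraries DICER1 ranked 3 by exon length and 5 by the longest transcript.

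Several of these genes moved among the shCtrl libraries together with the share of reads outside annotated exons, which was 10.2%, 7.77% and 9.36% in shCtrl libraries 1, 2 and 3. XPO5, DICER1, AGO1, AGO2, AGO4 and TNRC6A followed the order of that share (27.2% of all genes did), and MIR17HG ran in the opposite order (27.0% of all genes). Because every shSATB1 library had a higher share than every shCtrl library, the hairpin and the share can be separated only through the spread inside the groups. With the share as covariate, 12.1% of all genes passed the test (4.9% rose and 7.2% fell), and 6 of the 10 genes passed. XPO5, DICER1, AGO4 and TNRC6A kept their calls, while DROSHA, AGO3 and MIR17HG lost theirs. AGO1 and AGO2 passed only with the covariate here, both as lower, and AGO2 had been positive without it.

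**Figure D3:**
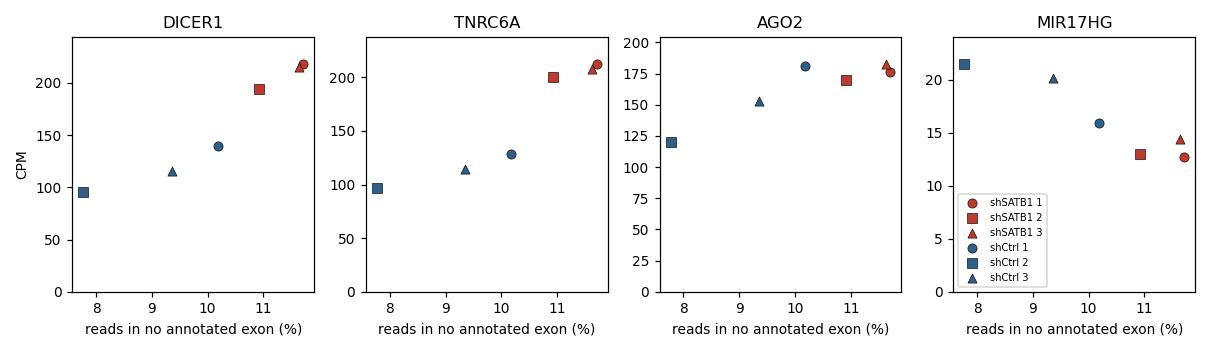
Level in CPM of 4 of the genes against the share of reads outside annotated exons in percent, 1 point per library, red for shSATB1 and blue for shCtrl. Within shCtrl, DICER1, TNRC6A and AGO2 are lowest in library 2, with the lowest share, and MIR17HG is highest there.

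**Figure D4:**
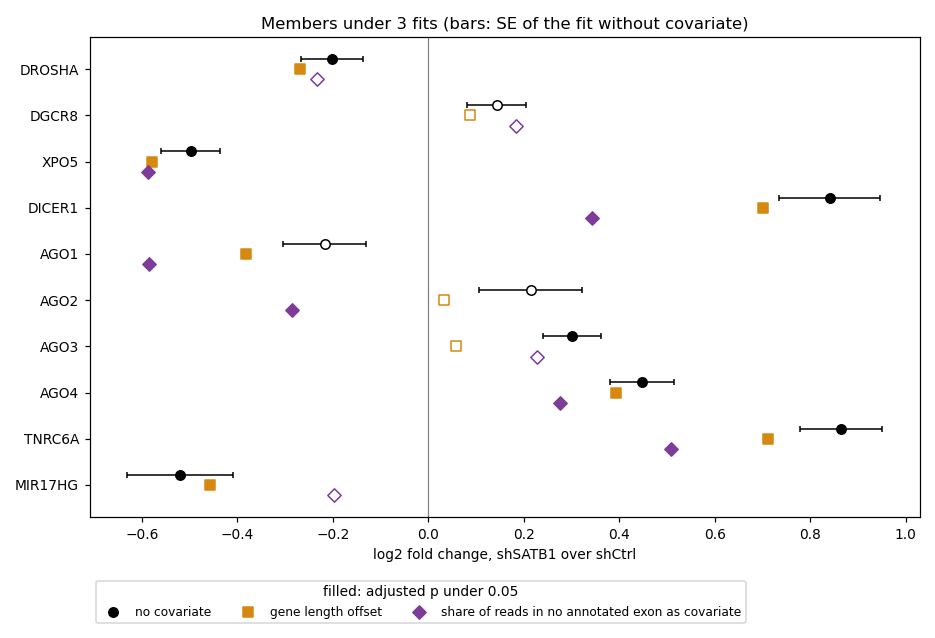
Log2 fold change of shSATB1 over shCtrl under 3 fits, without covariate (circles, with SE), with an offset for gene length (squares) and with the share of reads outside annotated exons as covariate (diamonds); filled symbols passed the test. XPO5, DICER1, AGO4 and TNRC6A are filled in all 3, AGO2 changes sign and MIR17HG loses its call with the covariate.

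The other genes of the pathway were counted in 7 lists that hold 97 different genes tested. Of the 9 nuclear cofactors of Microprocessor, 1 rose and 4 fell, where 14.3% of all genes tested rose and 16.6% fell. Their median log2 fold change was -0.14. Without shCtrl library 3 or any 1 of the shSATB1 libraries 2 fell, and without shCtrl library 2 there were 2 that rose. DDX17, an RNA helicase of the complex, rose to 1343 ± 40.3 CPM in shSATB1 cells, against 1026 ± 96.2 CPM in shCtrl cells. HNRNPA1, which binds the miR-18a hairpin inside the cluster, fell to 2390.0 ± 30.1 CPM in shSATB1 cells, against 3117 ± 238 CPM in shCtrl cells (adjusted p = 0.000870, edgeR). NCBP2, the small subunit of the nuclear cap-binding complex, also fell (log2 fold change -0.33, adjusted p = 0.00150, edgeR), as did SRSF3, which binds a motif beside many hairpins, and KHSRP, which was named after its values were seen. The calls of SRSF3 and KHSRP ended without shCtrl library 3 or any 1 of the shSATB1 libraries, and SRSF3 moved to -0.15 without shCtrl library 2. In the covariate fit none of the 9 rose and 2 fell, the calls of DDX17 (0.14, adjusted p = 0.188) and KHSRP (-0.18, 0.0975) ended, and SRSF3 turned sign (0.03, 0.857).

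In the list for dicing and loading 6 of 8 genes fell and none rose (16.6% and 14.3% of all genes tested), with a median log2 fold change of -0.35. Apart from RAN, the genes that fell encode HSP90 chaperones and their cochaperones. HSP90AB1, a cytosolic chaperone that opens Argonaute for the duplex, had 1967, 1986 and 1981 CPM in shSATB1 libraries, against 2681, 2962 and 2726 CPM in shCtrl libraries. The groups were far apart (log2 fold change -0.50, adjusted p = 7.86e-05, edgeR). The paralogue HSP90AA1 and the cochaperones FKBP4 and PTGES3 fell by 0.35, 0.49 and 0.43 on the log2 scale. RAN, the GTPase that drives export through XPO5, and the HSP90 activator AHSA1 make up the 6 and were named after their values were seen; RAN lost its call when any 1 of the shSATB1 libraries was left out, moved to -0.18 without shCtrl library 2 and stood at 0.00 in the covariate fit (adjusted p = 0.992). With the covariate 3 of the 6 passed, HSP90AB1, HSP90AA1 and FKBP4, and the list median was -0.17. The DICER1 partners TARBP2 and PRKRA, also named afterwards, had log2 fold changes of -0.06 and -0.10 (adjusted p = 0.594 and 0.306).

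Of 24 silencing effectors, the genes that act after target binding, 2 rose and 2 fell, where 14.3% and 16.6% of all genes tested did. The median of 0.01 was that of all genes tested. Without shCtrl library 3 or any 1 of the shSATB1 libraries 1 rose and none fell, without shCtrl library 1 there were 4 that rose, and without shCtrl library 2 there were 4 that fell. In the covariate fit none rose and 5 fell with a median of -0.07, CNOT1 of the same deadenylase complex as CNOT9 among them (-0.42, adjusted p = 3.46e-05; named after its values were seen), and with the length offset 1 rose and 4 fell with a median of -0.07. Beside TNRC6B, DDX6, a decapping activator, rose to 272 ± 6.46 CPM in shSATB1 cells, against 231 ± 5.55 CPM in shCtrl cells (adjusted p = 0.00734, edgeR), a call lost with the length offset (0.10, adjusted p = 0.197) and in the covariate fit (0.18, 0.119). PABPC1, the poly(A)-binding protein, and CNOT9, a subunit of the CCR4-NOT deadenylase, fell by 0.21 and 0.17 on the log2 scale, and both calls ended without shCtrl library 3 or any 1 of the shSATB1 libraries. Of 13 tested genes of small RNA tailing and turnover, 2 rose and 3 fell (14.3% and 16.6% of all genes tested). LIN28A and LIN28B had 0 to 5 reads per library and were not tested. Without shCtrl library 1 or 2 there were 4 that rose, without shSATB1 library 3 there was 1. ZSWIM8, the ubiquitin ligase adaptor that removes Argonautes bound to certain targets, had 52.5, 50.9 and 50.8 CPM in shSATB1 libraries, against 40.0, 31.7 and 37.4 CPM in shCtrl libraries, without overlap (log2 fold change 0.50, adjusted p = 0.000575, edgeR). The exonuclease XRN1 rose by 0.41 (adjusted p = 0.0527 without shSATB1 library 3), and the nucleases PNPT1 and SND1 fell by 0.27 and 0.26 on the log2 scale. With the covariate 1 of the 13 rose and 1 fell, and the calls of ZSWIM8 (0.21), XRN1 (-0.06) and PNPT1 (-0.16) ended. The 1 that rose there was TSNAX (0.39, adjusted p = 0.0414), named after its values were seen. It did not pass in the fit without covariate (0.23, adjusted p = 0.0920, edgeR).

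Among 27 other microRNA host genes, 3 rose and 4 fell, shares close to the 14.3% and 16.6% of all genes tested. The list was drawn up largely by gene symbol, and not every gene on it contains an annotated hairpin on its own strand. Without shCtrl library 3, shSATB1 library 1 or shSATB1 library 2 there was 1 that rose, and without shCtrl library 1 there were 5. In the covariate fit the calls of all 3 that rose ended. The 1 that rose there was MIR3142HG (log2 fold change 2.01, adjusted p = 0.0475, edgeR), named after its values were seen. It had 10 to 38 reads per library and did not pass in the fit without covariate (1.01, adjusted p = 0.0534). MCM7, which holds the 3 arms shown above that share seeds with the cluster, fell by 0.62 on the log2 scale (SE 0.063, adjusted p = 1.43e-05, edgeR), and no setting ended its call. TMEM245, host of miR-32, which has the seed of miR-92a, rose (log2 fold change 0.35, adjusted p = 0.00254, edgeR; chosen after its values were seen and outside the list). AC234582.1, host of miR-92b with the same seed and also chosen afterwards, did not pass (0.41, adjusted p = 0.334, edgeR). In the fit without covariate, hosts that share a seed with the cluster lay in both directions. The upward call rests on TMEM245 alone, whose values in the other settings are not given here. PANK1, a pantothenate kinase gene, had 15.3, 15.0 and 16.3 CPM in shSATB1 libraries, against 23.7, 26.1 and 25.9 CPM in shCtrl libraries (log2 fold change -0.69, adjusted p = 4.72e-05). MIR181A1HG, which hosts miR-181a-1, a microRNA known to tune T cell receptor sensitivity in thymocytes, had 4.81, 2.68 and 3.83 CPM in shSATB1 libraries, against 1.83, 1.78 and 1.44 CPM in shCtrl libraries. It rose by 1.16 on the log2 scale (adjusted p = 0.00162, edgeR), from 39 to 132 reads per library, and its call ended in the covariate fit (0.83, adjusted p = 0.162). MIR325HG rose too (1.34, adjusted p = 0.0293), from only 5 to 25 reads per library. It lost its call in the covariate fit (1.06, adjusted p = 0.485) and when shCtrl library 3, shSATB1 library 1 or shSATB1 library 2 was left out. The arms hosted by PANK1 and MIR181A1HG, shown because their hosts had among the largest changes on this list, have seeds that differ from those of the cluster.
hsa-miR-107: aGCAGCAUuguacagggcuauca
hsa-miR-181a-5p: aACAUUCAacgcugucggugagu

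**Figure D5:**
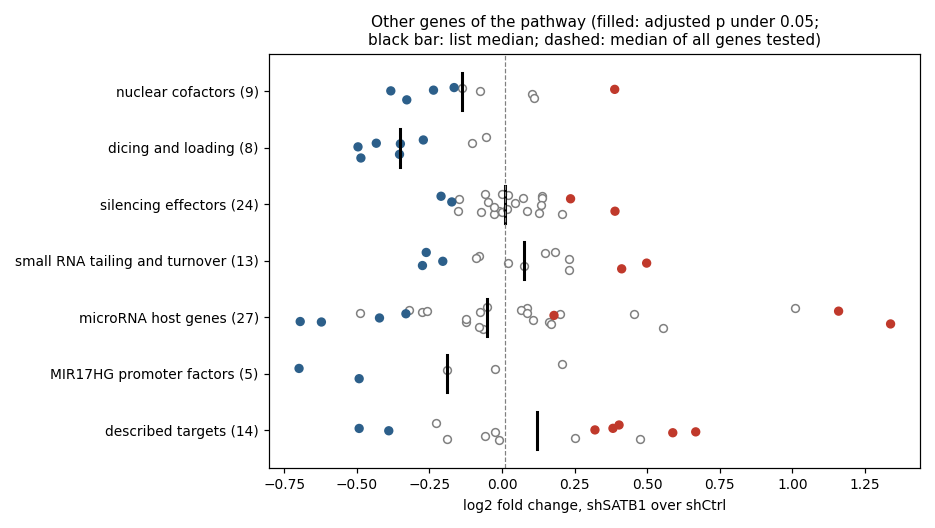
Log2 fold change of shSATB1 over shCtrl for each tested gene of 7 lists (number of genes in brackets), red for genes that rose, blue for genes that fell and open for genes that did not pass. The black bars are list medians, lowest at -0.35 for dicing and loading, and the dashed line is the median of all genes tested.

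Of the 5 transcription factors described at the MIR17HG promoter, 2 fell and none rose, where 16.6% and 14.3% of all genes tested did. The median log2 fold change was -0.19. MYC, a direct activator of the cluster in B cells, had 299, 318 and 310.4 CPM in shSATB1 libraries, against 486, 514 and 505 CPM in shCtrl libraries. E2F1, which activates the cluster and is itself a target of miR-17 and miR-20a, had 64.4, 69.4 and 62.7 CPM in shSATB1 libraries, against 90.0, 94.1 and 92.4 CPM in shCtrl libraries. Both genes lay apart between the groups (log2 fold changes -0.70 and -0.49, adjusted p = 3.23e-06 and 8.65e-05, edgeR). MYCN, E2F2 and E2F3 did not pass, with log2 fold changes of 0.21, -0.19 and -0.03. E2F2 passed as lower without shCtrl library 2 (-0.29, adjusted p = 0.0135) and in the covariate fit (-0.45, 0.0339), and MYCN as higher with the length offset (0.29, 0.0157). The list median was -0.12 without shCtrl library 1, -0.29 without shCtrl library 2 and -0.40 in the covariate fit.

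Among 14 described targets of the cluster, 5 rose and 2 fell, where 14.3% and 16.6% of all genes tested did. The median log2 fold change was 0.12, against 0.01 over all genes tested. RORA, a nuclear receptor gene, had 56.7, 52.0 and 60.0 CPM in shSATB1 libraries, against 39.9, 28.99 and 37.3 CPM in shCtrl libraries. BMPR2, a receptor of bone morphogenetic proteins, had 58.6, 53.7 and 62.1 CPM in shSATB1 libraries, against 43.1, 33.7 and 39.3 CPM in shCtrl libraries. Both rose without overlap (log2 fold changes 0.67 and 0.59, adjusted p = 0.000315 and 0.000294, edgeR). RBL2, a pocket protein that represses E2F genes, rose by 0.40, and the deubiquitinase gene CYLD and the transcription factor gene CREB1, both named after their values were seen, rose by 0.32 and 0.38. E2F1 and TGFBR2, a TGF-beta receptor gene also named afterwards, fell. BCL2L11, a gene of a proapoptotic BH3-only protein likewise named afterwards, had a log2 fold change of -0.06 and did not pass (adjusted p = 0.558, edgeR). The median was 0.18 without shCtrl library 1, 0.07 without shCtrl library 2 and 0.04 with the length offset, where the call of CYLD ended (0.16, adjusted p = 0.109). With the covariate 1 target rose and 3 fell, the median was -0.05, and the calls of RORA, BMPR2, RBL2 and CYLD ended.

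The 3′ untranslated regions were searched on the transcribed strand for the 8-base complement of each seed followed by A, that is GCACTTTA, GCACCTTA, TTTGCACA and GTGCAATA. At least 1 such site was found in 10 of the 14 described targets and in 2 of the 9 protein-coding genes of the machinery, DICER1 and AGO3, where 15.4% of 13018 tested coding genes held one. A seed site is a usual ground for describing a target, so the count over the targets is no test. All targets but E2F1 also have a 3′ untranslated region longer than the median of those coding genes, 1329 bases, up to 9171 bases in RORA. DICER1 and AGO3 do too, with 4270 and 16755 bases. The search took the transcript with the longest such region of each gene, and shorter matches to a seed were not counted. Sites of targets that rose, of 1 that fell and of the 2 machinery genes are shown to make the match to the seeds above visible, with 8 bases on either side (hg38, transcribed strand) and the site in capitals. The same GCACTTTA stands in RBL2, which rose, and in TGFBR2, which fell.
RORA, chr15:60497022-60497045, minus strand: ggcattacTTTGCACAactagctc
BMPR2, chr2:202560580-202560603, plus strand: cagtgaatTTTGCACAggagaagc
CYLD, chr16:50797946-50797969, plus strand: acatatatTTTGCACAaggtttta
RBL2, chr16:53490926-53490949, plus strand: aagtggagGCACTTTAgggctgta
TGFBR2, chr3:30691859-30691882, plus strand: taacatttGCACTTTAttaatgcc
DICER1, chr14:95086299-95086322, minus strand: tgcagtctGCACCTTAtggatcac
AGO3, chr1:36057516-36057539, plus strand: atcttttaGTGCAATAagcagttt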

How the data were processed

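For each Jurkat library the authors deposited a table of raw counts of reads per Ensembl gene; values were not normalized and libraries not pooled. Per the submitters' processing notes, which state no version or setting, the tools were Trim Galore, STAR and HTSeq and the build hg38. Strand setting, annotation release and polyadenylated RNA selection: not given in the sources used here, so overlapping and antisense genes are uncertain. Groups and replicate numbers come from the sample titles.

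From the deposited counts, edgeR 4.0.16 (R 4.3.3) with TMM scaling, filterByExpr (minimum count 10) and the quasi-likelihood F test compared shSATB1 with shCtrl over all genes, with Benjamini-Hochberg adjustment over 17520 genes and a threshold of 0.05. The 5 lines of each table that name no gene stayed out of library sizes. RPKM used the union exon length of GENCODE 29. The script was tested on simulated data. The genes, the lists and the settings were chosen with earlier results of these data known. Named genes are the 10 genes, up to 4 called genes per list with the largest change, the nearest tested neighbours, the 5 genes most like MIR17HG and SATB1; others are marked in the text. Within a group, no pair of libraries held identical values or agreed within sampling noise (chi-square per degree of freedom 2.97 to 23.1). Same-numbered libraries did not deviate together (r 0.080, 0.071 and 0.003), so the numbers were not treated as pairs. The 17 alternative settings were DESeq2 size factors, upper quartile scaling, no filter, at least 1 CPM in 3 libraries as the filter, DESeq2 1.42.0, limma-voom (limma 3.58.1), a replicate block, the share of reads outside annotated exons as covariate, an offset for gene length (a lowess curve over log exon length), the block with the offset, a null of a 1.2-fold change, and each library left out. Sequences are from RefSeq (GRCh38.p14) and, for target sites, the hg38 genome. Figures used matplotlib 3.10.9 and exact tests scipy 1.17.1.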

Additional observations from a re-analysis of the deposited data

Results flagged for a closer look

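Reads outside annotated exons count toward no gene, and their share entered only the covariate fit. They made up 11.4% ± 0.436 of reads in shSATB1 libraries and 9.10% ± 1.23 in shCtrl libraries (SD, n = 3 each), and were above the level of the control libraries in every shSATB1 library. A two-sided test on 3 against 3 libraries could not give an exact p below 0.1.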

How the results depend on the processing

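XPO5, DICER1, AGO4 and TNRC6A kept their direction and their call in all 17 alternative settings, MIR17HG kept its call in 15, AGO3 in 13 and DROSHA in 12. With the share of reads outside annotated exons as covariate, MIR17HG had a log2 fold change of -0.20 (adjusted p = 0.483), AGO2 turned to -0.29, 858 genes rose and 1262 fell instead of 2500 and 2910, and 3 genes of the pathway lists rose instead of 13. Against a null of a 1.2-fold change, MIR17HG (-0.52) missed the threshold (adjusted p = 0.0539), 1 of the 10 genes fell instead of 3, 758 genes rose and 698 fell, and 4 genes of the pathway lists rose and 7 fell instead of 13 and 22. With each library left out in turn, 1650 to 3218 genes rose (1662 without shCtrl library 3, 1650 without shSATB1 library 3) and 1817 to 3562 fell (1817 without shSATB1 library 1, 1852 without shSATB1 library 3), 10 to 20 genes of the pathway lists rose (20 without shCtrl library 1), and 6 (without shSATB1 library 3) to 10 of the 10 genes kept their place in the order of levels per length; with the longest transcript as length 5 did. With the replicate block, 5 of the 10 genes rose and 4 fell (AGO2 and AGO1 joined), 2783 genes rose and 3120 fell, and MIR17HG had -0.51. The cause of these changes was not tested. Depth did not limit the 10 genes, of which MIR17HG had the fewest reads, but MIR181A1HG, MIR325HG and MIR3142HG rest on few reads. The strand setting, the replicate source and the mature microRNAs are unknown here.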

Other observations

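Beyond the described targets, 2002 of 13018 tested protein-coding genes held at least 1 of the 4 seed sites of the cluster in the 3′ untranslated region, and 27.8% of them rose and 11.99% fell. Of the 11016 genes with none of the 4 sites, 14.5% rose and 21.8% fell. The median log2 fold changes were 0.09 with a site and -0.03 without. With an offset for gene length they were 0.04 and -0.03, and with the share of reads outside annotated exons as covariate 0.02 and -0.01. Genes with a site had a median 3′ untranslated region of 3037 bases, against 1123 bases without one, and the part of this difference in length was not tested. By seed, the median log2 fold change was 0.14 for the 474 genes with a site for miR-92a, 0.10 for the 680 with one for miR-17 and miR-20a, 0.10 for the 902 with one for miR-19 and 0.09 for the 231 with one for miR-18a. With the covariate these medians were 0.04, 0.02, 0.03 and -0.01, so that for miR-18a turned sign, and with the length offset 0.07, 0.04, 0.04 and 0.02. These are descriptions over genes, which are not replicates.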
